A study of Homo sapiens with 12 samples.

Results

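The comparison described here is that of 2 stable HEK-293T cell lines before any hairpin was induced: the line carrying a hairpin against CNOT2 and the line carrying a hairpin against firefly luciferase (Luci), each grown without doxycycline (Dox). Its members are the 4 arrays labelled as untreated CNOT2 or Luci cells, 2 for each line, out of 12 arrays in the series. They were chosen by their labels alone, and no measured value entered the choice. HEK-293T is a human embryonic kidney line, and the labels spell it HEK 292T. Each line is a stable clone with an integrated pINDUCER (pIND) plasmid, which holds a miR30-based short hairpin RNA (shRNA) under a Dox-inducible promoter. The cells were kept in DMEM with 10% FCS. The CNOT2 -Dox and Luci -Dox cells therefore differ in the hairpin they carry and in the clone from which they were grown, and they share the parental cell, the plasmid backbone and the absence of Dox. With 1 clone per hairpin, a difference between clones and a leak of the hairpin without Dox cannot be told apart. The same lines after 4 days in Dox at 1 µg/ml (CNOT2 +Dox and Luci +Dox, 4 further arrays) served as a repeat of the line comparison on arrays that the uninduced comparison does not contain. One control carries conflicting labels: the second Luci -Dox array is titled as untreated but is listed with Dox among its characteristics. The title was followed, and results that change when this array is treated otherwise are given below. The study's methods speak of a biological and a technical replicate, and the sources used here do not say which array is which, so p-values measure only the spread between these arrays, which may be technical.

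CNOT2 is a subunit of the CCR4-NOT complex, which shortens the poly(A) tails of mRNAs and so starts their decay. CNOT1 is its scaffold, CNOT6, CNOT6L, CNOT7 and CNOT8 are the deadenylases, and CNOT2 and CNOT3 form the module that contacts many of the proteins recruiting the complex to its targets. In Dox-inducible hairpin systems a Dox-dependent transactivator drives the hairpin, and some hairpin can be made without inducer. Comparing both uninduced lines asks how far they already differed before the knock-down was started, that is, which differences between induced lines were present beforehand. Major histocompatibility complex (MHC) class II genes, to which several of the largest differences below belong, encode the HLA-D molecules that present peptides to CD4+ T cells. They are normally transcribed in professional antigen-presenting cells, or elsewhere upon interferon-gamma, through a promoter module of W, X and Y boxes and the co-activator CIITA.

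The values were log2 fluorescence intensities, normalized by the authors so that every array had the same distribution, with a median of 3.34 and a range from 1.56 to 15.98. A difference of 1 on this scale is a 2-fold difference, and a level cannot be set against the level of another gene, since probes differ in brightness. Spots with gene names covered 20042 genes with a value on every array, and 15031 of them passed a filter on dim genes and were tested. All 9 HEK-293T-like markers looked at lay above the array median on each of the 4 arrays, NEFM being the brightest at 14.4 to 14.8. Of 9 measured B cell or other blood cell markers, 6 or 7 were at or below the array median on each array, PTPRC among them at 2.38 to 3.23, while CD79A read 6.53 to 7.73 and overlapped between the lines. Arrays resembled each other by replicate number more than by line. CNOT2 -Dox and Luci -Dox correlated at 0.985 over genes for replicate 1 and at 0.978 for replicate 2, whereas replicates of one line correlated at 0.957 (CNOT2 -Dox) and 0.958 (Luci -Dox). Lines were therefore also compared within the same replicate number, and such a comparison is called pair 1 or pair 2 from here on. Against the other uninduced lines of the series the CNOT2 line differed from the Luci line at fewer genes: among 10021 genes with a mean level of 5.75 or more, called brighter genes below, 0.798% differed by over 2-fold between the first CNOT2 -Dox and Luci -Dox arrays and 2.12% between the second. The values for the CNOT1 and CNOT3 lines, with 1 array each and measured against the first Luci -Dox array, were 13.9% and 7.48%.

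CNOT2 itself read somewhat below the control without Dox, by a difference that did not pass the test. Its level was 9.86 and 9.72 on the CNOT2 -Dox arrays and 10.08 and 10.17 on the Luci -Dox arrays. In the other uninduced lines, with 1 array each, CNOT2 read 10.63 (CNOT1) and 10.63 (CNOT3). Both CNOT2 -Dox arrays were below both Luci -Dox arrays, as was the case for 10.3% of genes tested, while for another 10.3% both were above. These shares also apply to the other genes below whose uninduced arrays did not overlap. The difference for CNOT2 was -0.34 ± 0.31 (SE, n = 2 arrays per line). This corresponds to 79.3% of the Luci level, with a 95% interval of the log2 difference from -1.07 to 0.40, and did not pass the test (limma, unadjusted p = 0.314, adjusted p = 1). With Dox, CNOT2 read 8.96 and 8.38 in the CNOT2 line against 10.36 and 9.98 in the Luci line. That difference was -1.5 (interval -2.23 to -0.77), or 35.4% of the Luci level, and its adjusted p over all genes was 0.638 (limma). The change of the line difference with Dox was -1.17, with an interval from -2.20 to -0.13 (limma, unadjusted p = 0.0331, adjusted p = 1). With the replicate number as a block and an intensity trend, the intervals were narrower, -0.78 to 0.11 without Dox and -1.95 to -1.05 with Dox, and the induced difference passed the test (limma, adjusted p = 0.0287). Whether CNOT2 was partly lower without Dox was not resolved, since the uninduced interval includes 0 in either fit.

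The other CCR4-NOT subunits showed no common direction. Of 14 listed subunits 12 were tested, none was called (0.0% of all genes tested were), 3 were higher and 6 lower in both pairs, and the median difference was -0.06 beside a median of 0.00 over all genes. CNOT1 had the highest value, with 7.24 and 7.11 in the CNOT2 line against 6.48 and 6.52 in the Luci line, a difference of 0.68 ± 0.30 (SE). The arrays of both lines did not overlap for CNOT1 without Dox, but they did with Dox, where it read 6.57 and 7.20 against 6.64 and 6.43. CNOT9 (RQCD1 on the array), a subunit that binds several adaptor proteins, had the lowest value, 4.18 and 3.6 against 5.15 and 4.46, and was higher in the CNOT2 line in both induced pairs. Values for the deadenylases lay between -0.35 (CNOT6) and 0.21 (CNOT8). CNOT10, a subunit bound to the N-terminal part of CNOT1, was represented by 10 spots. They averaged -0.28 ± 0.13 (SD over spots) in pair 1 and -0.43 ± 0.19 in pair 2. The gene lies in a part of chromosome 3, described below, where medians over genes were -0.30 and -0.35 in these pairs. Genes for the processing and loading of hairpins (17 tested, among them those for Drosha, Dicer and Argonaute proteins) had a median of 0.05, with values from -0.26 to 0.55.

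Over all 15031 genes, none passed the test between the uninduced lines (limma with Benjamini-Hochberg adjustment, lowest adjusted p = 1), while 401 genes had an unadjusted p under 0.05. Treating the replicate number as a block raised the latter number to 842 and left none called (lowest adjusted p = 0.719). With the block and a variance trend over intensity it was 722, with none called, and HLA-DOA had the lowest adjusted p of 0.087. Gene values are therefore given as levels and differences, and no single gene is said to have changed. Differences over 2-fold in the same direction in both pairs were found for 109 genes that were higher (0.725% of genes tested) and 83 that were lower (0.552%) in the CNOT2 line. Among the genes just inside this limit were ALOX15B (1.01 and 1.21) and ZNF136 (-1.01 and -1.32). Among those just outside it were UBAP1L (1.98 and 1.0) and GNN (-1.5 and -1.0).

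Most of these genes were dim. Their median levels were 3.98 for the higher and 3.55 for the lower genes, against 7.32 for all genes tested, and 85 of the 109 and 75 of the 83 lay in the dimmest of 4 equal groups of genes by level. In that group the difference between the lines had an SD over genes of 0.847 in pair 1 and 0.986 in pair 2, falling to 0.200 and 0.277 in the brightest group, where no gene passed 2-fold in both pairs. Among brighter genes 12 were higher (0.120% of 10021) and 5 lower (0.0499%), and they are marked in the plot of pair 2 against pair 1. The 2-fold limit that picked these genes sets them apart there, and several lie close to it.

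**Figure D1:**
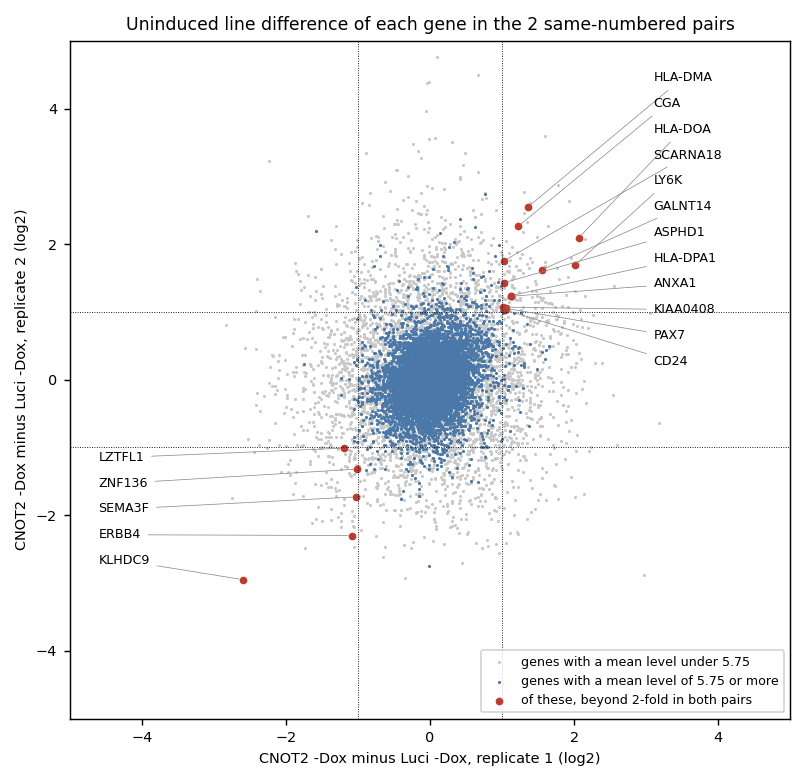
Each point is a gene, with its CNOT2 -Dox minus Luci -Dox difference (log2) in replicate 1 on the horizontal and in replicate 2 on the vertical axis; dotted lines mark 2-fold. The dim genes (grey) spread in all directions, and the 17 brighter genes beyond 2-fold in both pairs (red, named) are 12 higher and 5 lower ones.

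The induced arrays of the same lines gave a second reading of these genes, on arrays that were not used for the 2-fold limit. They did enter the filter on dim genes and the choice of each gene's spot. Of the 109 higher genes 64 (58.7%) were also higher in both induced pairs, beside 31.5% of all genes tested, and 29 were over 2-fold higher there. These 29 are 26.6% of the 109 and 8.87% of the 327 genes over 2-fold higher in both induced pairs (2.18% of genes tested). Of the 83 lower genes 30 (36.1%) were lower in both induced pairs, beside 31.8% of all genes, and 6 were over 2-fold lower, which is 7.23% of the 83 and 4.96% of the 121 genes found so in the induced pairs (0.805% of genes tested). For the lower genes as a whole the share was thus close to that of any gene. The level that makes a gene brighter is a mean over the induced arrays too, and HLA-DMA reached it only through the CNOT2 +Dox arrays. With the level taken from the 4 uninduced arrays alone, an alternative chosen after seeing the data, 11 genes were over 2-fold higher and 3 lower (0.110% and 0.0299% of 10025). Of these 11, 10 had the same direction in both induced pairs, beside 32.2% of all genes of that level, and 9 were over 2-fold. The 3 lower ones (KLHDC9, LZTFL1 and ZNF136) all had the same direction, beside 35.2%, and 2 were over 2-fold. For LZTFL1 the induced differences were -0.02 in pair 1, which is next to none, and -0.99 in pair 2.

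KLHDC9, which encodes a kelch domain protein, had the largest difference of the lower genes. Its level was 4.69 and 4.38 in CNOT2 -Dox cells against 7.29 and 7.33 in Luci -Dox cells, and 4.72 and 5.74 against 7.27 and 7.68 with Dox. All 4 arrays of the CNOT2 line lay below all 4 of the Luci line. The uninduced difference was -2.78 ± 0.39 (SE), or 6.84-fold (limma, unadjusted p = 0.00024, adjusted p = 1). In the other uninduced lines KLHDC9 read 2.47 (CNOT1) and 7.96 (CNOT3), so the level was low in 2 of the 4 lines. ERBB4, a receptor tyrosine kinase for neuregulins, read 4.95 and 4.54 against 6.04 and 6.84 without Dox, a 3.24-fold lower level, and stayed lower with Dox (5.26 and 5.63 against 6.70 and 6.74). SEMA3F, a secreted guidance factor, read 5.35 and 4.42 against 6.38 and 6.15, and LZTFL1, a regulator of protein traffic in cilia, 6.17 and 6.47 against 7.36 and 7.48. These lie on chromosome 3. ZNF136, a KRAB zinc finger gene, read 5.22 and 6.11 against 6.23 and 7.43 without Dox and 4.67 and 4.61 against 6.14 and 6.34 with Dox. The lines did not overlap in either state, though without Dox by a narrow margin.

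Of the higher brighter genes, GALNT14 was one of the steadiest. This enzyme attaches the first sugar of mucin-type O-glycans. It read 8.55 and 8.41 in CNOT2 -Dox cells against 7.0 and 6.79 in Luci -Dox cells, a 3.00-fold difference (1.59 ± 0.35, SE, limma, unadjusted p = 0.00277). With Dox the levels were 8.86 and 9.36 against 6.77 and 7.49, so the lines were apart in both states. LY6K, a GPI-anchored cancer-testis antigen, read 7.58 and 7.62 against 5.57 and 5.93 and remained apart with Dox (7.27 and 6.89 against 5.82 and 4.50). CD24, a GPI-anchored glycoprotein of the cell surface, was 8.04 and 7.35 against 7.0 and 6.32, and 8.94 and 8.43 against 7.37 and 6.82 with Dox. ASPHD1, named for its aspartate beta-hydroxylase domain, read 6.26 and 6.94 against 5.23 and 5.51, and again did not overlap between lines with Dox. ANXA1, a calcium-dependent phospholipid-binding protein, read 9.93 and 10.70 against 8.81 and 9.47.

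For CGA and KIAA0408 the replicates of CNOT2 -Dox cells differed by more than the lines did in either uninduced pair. CGA, the shared alpha subunit of the glycoprotein hormones, read 5.92 and 8.32 in CNOT2 -Dox against 4.70 and 6.06 in Luci -Dox cells, so the groups overlapped although each pair was over 2-fold apart. KIAA0408 read 5.93 and 8.62 against 4.92 and 7.55, and its difference turned negative without the second CNOT2 -Dox or the first Luci -Dox array (-0.305 and -0.275). PAX7, a paired box transcription factor of muscle stem cells, read 7.80 and 8.58 against 6.75 and 7.53 on its brighter spot, but its dim spot differed by -1.49 and the mean of both spots had the opposite sign. The remaining gene, SCARNA18, a small Cajal body RNA, was 7.62 and 7.58 against 6.6 and 5.83 without Dox and did not repeat with Dox (-0.39 and -0.09). It was the exception among the 12.

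**Figure D2:**
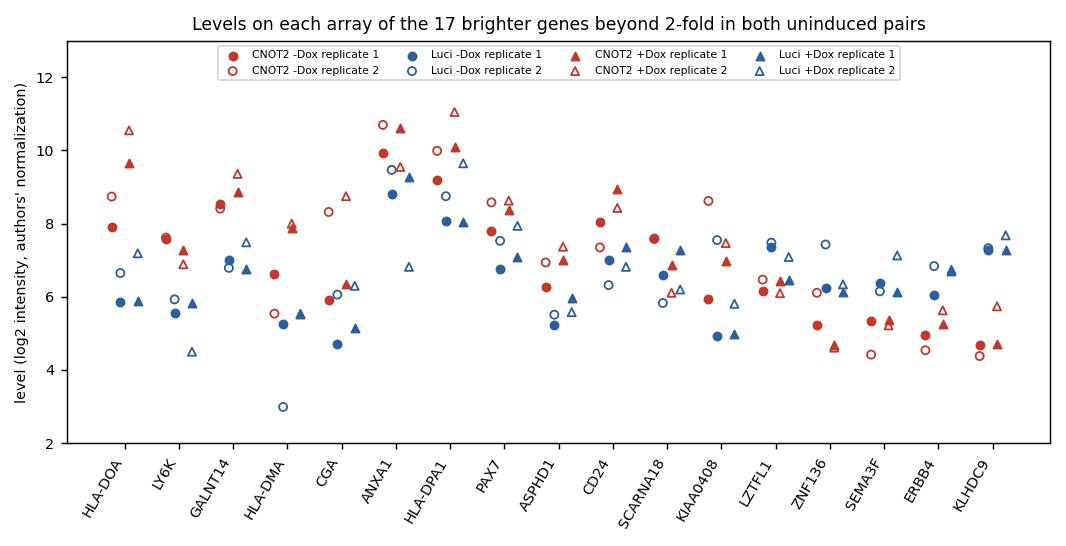
Levels (log2 intensity) of the 17 brighter genes on the 8 arrays of both lines: red CNOT2, blue Luci, circles without Dox, triangles with Dox, filled symbols replicate 1 and open symbols replicate 2. KLHDC9 shows 4.38 to 5.74 on the CNOT2 arrays and 7.27 to 7.68 on the Luci arrays. Without Dox, CGA and KIAA0408 differ more between the CNOT2 replicates than between the lines.

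The start regions of KLHDC9 and GALNT14 are shown as those of a lower and a higher gene whose lines did not overlap over the 8 arrays, and they differ in their content of CpG, the dinucleotide at which vertebrate promoters can be methylated. Both were chosen after their values were seen. The windows cover 250 bases before to 50 after the gene start in RefSeq (GRCh38.p14), chr1:161098111-161098410 on the plus strand for KLHDC9 and chr2:31138391-31138690 on the minus strand for GALNT14, with each CG in capitals.
KLHDC9: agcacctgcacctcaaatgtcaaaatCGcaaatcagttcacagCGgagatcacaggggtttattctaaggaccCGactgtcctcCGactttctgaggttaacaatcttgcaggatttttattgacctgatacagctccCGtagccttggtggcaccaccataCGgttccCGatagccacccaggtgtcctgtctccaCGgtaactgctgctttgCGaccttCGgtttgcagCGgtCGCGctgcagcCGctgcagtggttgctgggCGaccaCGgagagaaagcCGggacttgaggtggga
GALNT14: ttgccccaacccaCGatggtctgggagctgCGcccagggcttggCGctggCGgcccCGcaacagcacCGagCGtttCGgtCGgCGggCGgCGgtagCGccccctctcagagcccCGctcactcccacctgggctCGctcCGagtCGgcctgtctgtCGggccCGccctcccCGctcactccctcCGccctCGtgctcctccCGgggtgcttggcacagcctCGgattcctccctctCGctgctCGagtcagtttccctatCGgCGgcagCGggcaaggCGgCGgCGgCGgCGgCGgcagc
KLHDC9 holds 17 CG, and 26.2% of the promoters of tested genes hold fewer, whereas GALNT14 holds 35 CG, more than 76.7% of them. Methylation was not measured here. The ratio of observed to expected CG had a median of 0.552 over the 2-fold higher genes, 0.725 over the 2-fold lower genes and 0.822 over all tested genes, but only 65.1% of either set had a window in the table, so this comparison is void. Dim genes in general had a lower ratio (0.682) than brighter genes (0.858).

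MHC class II genes were higher in the CNOT2 line already without Dox, most of all HLA-DOA. Of 18 genes 14 were tested, 12 were higher and 1 lower (HLA-DOB) in both pairs (27.7% of all genes tested were higher and 26.8% lower in both pairs, which holds for the counts of other lists too), none was called, and 3 (HLA-DOA, HLA-DMA and HLA-DPA1) were over 2-fold higher in both pairs. The median difference was 0.605 (0.61 in pair 1 and 0.485 in pair 2), beside 0.00 for all genes tested, and 1.96 and 1.24 in the induced pairs. Against all 4 Luci arrays as control the median was 0.321. The study picked this list on these arrays, so its direction is not independent evidence. HLA-DOA, the alpha chain of a molecule that restrains peptide loading, read 7.92 and 8.74 in CNOT2 -Dox cells against 5.86 and 6.65 in Luci -Dox cells. Both differences were alike, 2.06 and 2.09, or 4.21-fold on average (2.08 ± 0.58, SE, limma, unadjusted p = 0.00977, adjusted p = 1). That fit had no block, so its SE also holds the shift between replicates. With the block and intensity trend the SE was 0.24 (limma, adjusted p = 0.087). With Dox the levels were 9.67 and 10.55 against 5.88 and 7.19, and the further widening of 1.5 did not pass the test (limma, adjusted p = 1). In the other uninduced lines HLA-DOA read 8.21 (CNOT1) and 6.14 (CNOT3).

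HLA-DMA encodes a chain of the HLA-DM molecule, which loads peptides onto class II molecules. HLA-DMA read 6.61 and 5.54 against 5.25 and 2.99 without Dox and 7.88 and 8.0 against 5.54 and 5.53 with Dox. Its low reading of 2.99 is from the second Luci -Dox array, which carries the conflicting label, and the other Luci arrays read 5.25 to 5.54. With 1 array left out, the uninduced difference ran from 0.825 to 3.08. The other spot of HLA-DMA differed by 0.465 without Dox. HLA-DPA1, an alpha chain that presents peptides, read 9.18 and 9.99 against 8.06 and 8.75, and its uninduced arrays did not overlap between lines. The CNOT1 line read 4.94 for it, far below either. HLA-DPB1 (6.97 and 6.34 against 6.01 and 5.83) and HLA-DQB1 (8.51 and 8.33 against 7.96 and 7.44) were also above both control arrays on their brightest spots. Their further spots varied. Those of HLA-DPB1 had mean differences of 1.34, 0.025, 0.445 and -0.015 without Dox. Those of HLA-DQB1 had -0.465, 0.245 and 0.335, the first being a spot of like level that was lower in both pairs (-0.43 and -0.50). HLA-DRB1 had 10 spots, which averaged 0.67 ± 0.46 (SD over spots) in pair 1 and 0.45 ± 0.22 in pair 2, and 2.00 and 2.15 with Dox. HLA-DRA, the alpha chain that pairs with them, was dim, with 4.04 and 3.1 against 2.26 and 2.56, and was lower in the CNOT2 line in both induced pairs (-0.56 and -0.48). CD74, the invariant chain of class II molecules, was too dim to be tested (2.10 and 1.69 against 2.26 and 2.48), as were HLA-DPB2, HLA-DQA1 and HLA-DRB6. HLA-DRB genes are near-identical copies, and their signals may be shared between spots.

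The genes around the class II genes had medians near 0, with members on both sides of it. Among the 30 tested genes on either side of HLA-DOA, the 49 that are not HLA-D genes, from C4B to RPS10, had medians of 0.04 and -0.02. The stretch of 40 neighbouring genes that holds most class II genes had medians of 0.35 and 0.17, and its 28 genes other than HLA-D had 0.045 and 0.015. HCP5, a non-coding RNA gene of the class I region, was over 2-fold higher in both pairs, with 4.04 and 5.33 against 2.95 and 3.46. The regulators of class II transcription (8 tested, the RFX and NF-Y subunits among them) had a median of -0.185 with values from -0.38 to 0.22. CIITA itself was too dim to be tested, with 1.94 and 2.77 in CNOT2 -Dox against 3.05 and 2.70 in Luci -Dox cells, all below the array median, and 2.49 and 2.86 against 2.12 and 2.03 with Dox. MHC class I genes had a median of 0.24 (17 tested, 10 higher and 1 lower in both pairs), and PSMB9, an immunoproteasome subunit encoded among the class II genes, read 4.48 and 4.10 against 3.93 and 2.50. Of 39 tested interferon-stimulated genes 18 were higher and 6 lower in both pairs, with a median of 0.18, and of 0.53 and 0.65 in the induced pairs.

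The start regions of HLA-DOA (chr6:33009542-33009841) and HLA-DMA (chr6:32953048-32953347), both on the minus strand of GRCh38.p14 and from RefSeq, are shown because both genes were over 2-fold higher in both pairs. Capitals mark GATTGG, the core of the Y box that NF-Y binds, and in HLA-DOA also AGCAACAGA, letters of an X box. Both strands were searched.
HLA-DOA: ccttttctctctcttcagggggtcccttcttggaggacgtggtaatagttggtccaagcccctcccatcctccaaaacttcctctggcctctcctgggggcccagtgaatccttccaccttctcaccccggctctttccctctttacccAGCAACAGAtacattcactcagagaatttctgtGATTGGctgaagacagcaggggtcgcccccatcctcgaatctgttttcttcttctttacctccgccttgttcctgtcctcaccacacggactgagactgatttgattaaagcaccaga
HLA-DMA: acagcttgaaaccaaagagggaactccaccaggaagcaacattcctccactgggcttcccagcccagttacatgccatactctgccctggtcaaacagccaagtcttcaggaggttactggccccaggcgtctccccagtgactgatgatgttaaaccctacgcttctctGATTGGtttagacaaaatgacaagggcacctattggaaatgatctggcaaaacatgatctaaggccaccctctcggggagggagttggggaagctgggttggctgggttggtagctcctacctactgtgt
Counted from the gene start, GATTGG begins at -68 in HLA-DOA and at -80 in HLA-DMA. It occurred in 10 of the 11 tested class II genes that have a window and in 15.7% of 27305 promoter windows of the same length. AGCAACAGA begins at -101 in HLA-DOA and occurred in 0.392% of windows, with no other tested class II gene among them.

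The 15 genes with the largest higher and the 15 with the largest lower difference in both pairs were mostly dim, apart from HLA-DOA, LY6K, GALNT14 and KLHDC9 described above, and the repeat with Dox varied. Among the higher ones, GDNF, a growth factor for kidney and neuron precursors, read 5.58 on both CNOT2 -Dox arrays against 3.65 and 2.94, but with Dox the difference was -1.12 in pair 1 and 1.71 in pair 2. ONECUT1, a transcription factor of liver and pancreas, read 4.84 and 4.61 against 3.21 and 2.35 and differed by 0.12 and 0.20 with Dox. NAP1L2, a nucleosome assembly protein of neurons, was 5.63 and 5.59 against 4.03 and 3.86, and higher in both induced pairs as well. MEFV, which encodes the inflammasome protein pyrin, read 4.79 and 4.67 against 2.64 and 2.60 and differed by -1.75 in induced pair 2. CCDC175 (C14orf38 on the array) had the opposite direction in both induced pairs (-0.36 and -0.57).

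Of the lower genes, ITPKB, a kinase of inositol trisphosphate, read 2.65 and 3.03 against 5.40 and 4.77, and 3.13 and 3.93 against 5.09 and 5.01 with Dox, so its lines did not overlap in either state, while its second, dimmer spot differed by 0.25 without Dox. LINGO2, a leucine-rich repeat protein of neurons, behaved likewise, with 2.06 and 2.28 against 3.70 and 4.39, and -1.76 and -3.40 with Dox. SOX12, an HMG box transcription factor, read 2.10 and 2.33 against 3.83 and 4.82. CLDN1, a tight junction protein, read 2.29 and 2.49 against 3.80 and 4.04 without Dox and differed by 0.25 and 0.01 with Dox. GCNT4 (-1.90 and -1.69 without Dox, 0.69 and 0.14 with Dox) and SLC5A10 (-1.5 and -2.09, then 0.21 and 0.54) had the opposite direction in both induced pairs as well. The mean over the 10 spots of GCNT4 was -0.396 without Dox. For NPAS3, RFPL4A, RGR and ANKRD20A8P a further spot of the gene gave the opposite sign.

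Genes printed many times on the array gave a reading with less noise per gene. Of 744 genes with at least 8 spots of like level, 416 reached the level of the brighter genes. Of these 416, 26 were higher and 11 lower by more than 0.3 in both pairs, and none was over 2-fold in both. This group and limit were chosen after the values were seen, and the spots of a gene share its RNA, so their spread is technical. HMOX1, a haem-degrading enzyme, had a difference of 0.89 ± 0.17 (SD over 10 spots) in pair 1 and 1.57 ± 0.12 in pair 2, and of 1.68 and 2.30 with Dox. KLF2, a transcription factor of quiescent and endothelial cells, had 0.75 ± 0.16 and 0.88 ± 0.28, and 1.29 and 1.24 with Dox. Both were thus higher in all 4 pairs. NFKBIA, the inhibitor of NF-kappa-B, had 0.43 ± 0.11 and 0.46 ± 0.09, and 0.82 and 0.98 with Dox, while WDHD1, a DNA replication factor, had 0.43 ± 0.09 and 0.58 ± 0.19. These lie on chromosome 14. CCND1, cyclin D1, had 0.59 and 0.69 without Dox and only 0.24 and 0.01 with Dox. Lower genes included MSH6, a mismatch repair protein, with -0.39 ± 0.04 and -0.37 ± 0.07 (-0.42 and -0.33 with Dox). PPARG, NEK4, RAD18, HACL1 and TOP2B, all on chromosome 3, had pair values from -0.31 to -0.65.

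A comparison that takes both Dox states together, added after the values were seen, had more arrays for the line difference. Without the replicate block no gene was called (limma, 854 genes at an unadjusted p under 0.05, lowest adjusted p = 0.512), and with the block alone none was (lowest adjusted p = 0.0598, HLA-DOA). With the block and the intensity trend 34 genes were called, 27 higher and 7 lower (0.226% of genes tested). All 34 had the same direction in all 4 pairs (13.3% of placed genes were higher and 12.7% lower in all 4). Of the 34, 19 had no overlap between the 4 CNOT2 and 4 Luci arrays (1.85% of genes tested were without overlap and higher, and 1.81% lower). In both uninduced pairs 9 were over 2-fold (0.725% of genes tested were so higher and 0.552% lower). These traits come from the arrays that made the call, so they describe the 34 genes and are no further evidence for them. The number of genes called rested on single arrays. It was 2 without the second Luci -Dox array (which carries the conflicting label), 4 without the second CNOT2 +Dox array, 8 without the first CNOT2 +Dox array, 13 without the first Luci -Dox array, 14 without the second CNOT2 -Dox array, 45 without the first CNOT2 -Dox array, 16 without the second Luci +Dox array and 49 without the first Luci +Dox array. HLA-DOA and APOE were called in all 8 of these refits, KLHDC9 in 7 and GALNT14 in 6.

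Since the induced arrays enter this comparison, a call in it can come from the induced state. APOE, the lipid-carrying apolipoprotein, read 10.75 and 11.29 in CNOT2 -Dox against 9.80 and 10.11 in Luci -Dox cells, and 11.83 and 12.48 against 9.69 and 10.73 with Dox. Its lines did not overlap without Dox. INPP5D, which removes a phosphate from inositol lipids, differed by 0.82 and 1.61 without Dox and by 2.48 and 3.56 with Dox. SFN, the 14-3-3 sigma protein of epithelia, differed by 0.76 and 2.74 and then by 3.5 and 2.21. LGALS1 and LGALS3, which encode galectins, read 10.77 and 9.53 against 9.99 and 8.42, and 12.13 and 11.15 against 11.24 and 9.98 without Dox. DLST, a subunit of the 2-oxoglutarate dehydrogenase complex, differed by 1.17 and 0.98 without Dox and by 0.53 and 0.39 with Dox. Among the lower genes, ZSCAN18, a zinc finger gene, read 8.43 and 9.38 against 9.45 and 10.30, and differed by -1.02 and -1.19 with Dox. The change of the line difference with Dox was not called for any gene (0.0%, limma, 353 genes at an unadjusted p under 0.05).

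The line difference followed chromosomal position on a part of the genome, most of all on chromosome 14. The 483 tested genes of that chromosome had a median difference of 0.32 in pair 1 and 0.30 in pair 2, and of 0.34 and 0.37 with Dox, where the median over all genes was 0.01 and 0.00 without Dox. The quartiles of the difference over its genes were 0.098 and 0.512. On this chromosome 65.2% of genes were higher in both uninduced pairs, and 231 (47.8%) were higher in all 4 pairs, against 12.6% of the genes outside all stretches of shifted genes. The medians of all other chromosomes lay between -0.15 and 0.08. Relative to each gene's mean over the 8 arrays, the median level of chromosome 14 was 0.172 and 0.124 on the CNOT2 -Dox arrays and -0.124 and -0.137 on the Luci -Dox arrays. It was 0.229 and 0.165 on CNOT2 +Dox and -0.165 and -0.181 on Luci +Dox arrays, so every array of one line was on the same side. Within a line there was little difference with Dox: treated minus untreated cells had a chromosome 14 median of -0.01 and 0.00 in the Luci line and of 0.03 and 0.01 in the CNOT2 line.

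**Figure D3:**
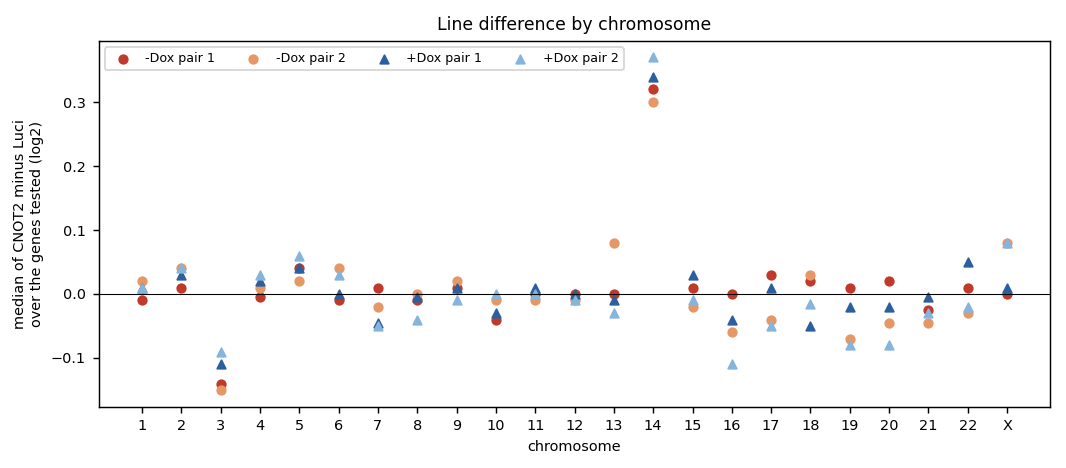
Median CNOT2 minus Luci difference (log2, vertical axis) over the tested genes of each chromosome (horizontal axis), for the uninduced (circles) and induced (triangles) pairs. Chromosome 14 stands at 0.30 to 0.37 in all 4 pairs, and the other chromosomes lie near 0.

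Other lines also had shifts against the first Luci -Dox array, which is the array of pair 1 too. On chromosome 14 these shifts had the same direction as that of the CNOT2 line. In the CNOT1 line chromosome 14 was at 0.76 and chromosome 2 at -0.36, and in the CNOT3 line chromosome 14 was at 0.14, chromosome 9 at -0.55 and chromosome 21 at 0.42. The DNA content of the lines was not measured. To find where the shift lay, the genes were cut into 372 stretches of about 40 neighbours in gene order, and stretches were kept when both uninduced pair medians were at least 0.1 in the same direction. These were 16 higher stretches, 11 of them on chromosome 14, and 19 lower ones, 9 on chromosome 3 and 4 on chromosome 6. In the induced pairs, which were not used for that limit, 14 of the 16 and 16 of the 19 passed the same limit, where 30 of all stretches passed it upwards and 42 downwards.

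On chromosome 14 the shift ran over 11 joined stretches, from MAFIP to ANKRD9 (443 genes), with medians of 0.32 and 0.31 without Dox. Some genes along it differed by more than that. ZFHX2, a zinc finger homeobox gene, read 7.42 and 7.02 against 6.16 and 6.04, and IFI27L2, a mitochondrial interferon-related protein, 11.66 and 11.55 against 11.02 and 10.87. GSTZ1, an enzyme of tyrosine breakdown, read 9.37 and 9.43 against 8.63 and 8.59 without Dox and 9.35 and 9.76 against 8.72 and 8.82 with Dox. The lines did not overlap on any of the 8 arrays for these genes. Nor did they for GALC, a lysosomal galactosidase (6.02 and 6.22 against 5.25 and 5.56), or ALDH6A1, an enzyme of valine breakdown (9.22 and 8.99 against 8.67 and 8.21). Of all genes tested 1.85% were higher without overlap. SLC25A21, LGALS3, ACOT1 and FUT8, also on chromosome 14, were higher by at least 0.54 in all 4 pairs, but their arrays overlapped between lines. Of the 34 genes called over both Dox states, 6 lay on chromosome 14 (17.6%, beside 3.22% of all placed genes), and of the genes over 2-fold in both uninduced pairs 9 of the 109 higher and 0 of the 83 lower ones did.

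The longest lower run of stretches covered a large part of the short arm of chromosome 3, from CNTN6 to PRKCD (320 genes), with medians of -0.30 and -0.35 without Dox and -0.285 and -0.30 with Dox. There 46.6% of genes were lower in all 4 pairs, against 11.8% outside all such stretches. NT5DC2, a haloacid dehalogenase family gene, read 9.63 and 9.53 against 10.34 and 10.30, and 8.97 and 9.32 against 10.09 and 10.59 with Dox. TUSC2, a tumour suppressor gene of this chromosome, read 10.43 and 10.28 against 10.98 and 10.99, and DAG1, the dystroglycan gene, 7.13 and 7.02 against 7.80 and 7.66. SEMA3F and LZTFL1, described above, and SH3BP5 (6.04 and 6.29 against 6.87 and 7.53) also lie there. The CNOT1 and CNOT3 lines had medians of -0.165 and -0.26 over the same genes against the first Luci -Dox array.

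Another lower run held the start of chromosome 6, from DUSP22 to H2BC15 (160 genes), with medians of -0.225 and -0.175 without Dox and -0.23 and -0.19 with Dox, and 36.2% of its genes lower in all 4 pairs. It includes the large histone gene cluster. H2AC12 (HIST1H2AH on the array), a histone H2A gene, read 10.48 and 10.17 against 11.21 and 10.90, and H1-4 (HIST1H1E), a linker histone, 11.28 and 11.17 against 11.82 and 11.63. Not all histone genes there were lower on the spot used: H2BC12 (HIST1H2BK), a histone H2B gene, read 11.07 on both CNOT2 -Dox arrays against 10.91 and 10.33. Its other, dimmer spot had the opposite sign in both pairs (-0.04 and -0.27). On the spot used, H2BC12 was among the 27 genes called higher over both Dox states with the block and trend (limma, adjusted p = 0.0356). That call was made in 2 of the 8 refits without 1 array. ZNF184, a zinc finger gene, read 6.86 and 6.98 against 7.49 and 7.27. Histone genes are near copies of each other, and their spots may share signal. The stretches and the genes named in them were picked on their values, so these numbers describe them and carry no test.

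**Figure D4:**
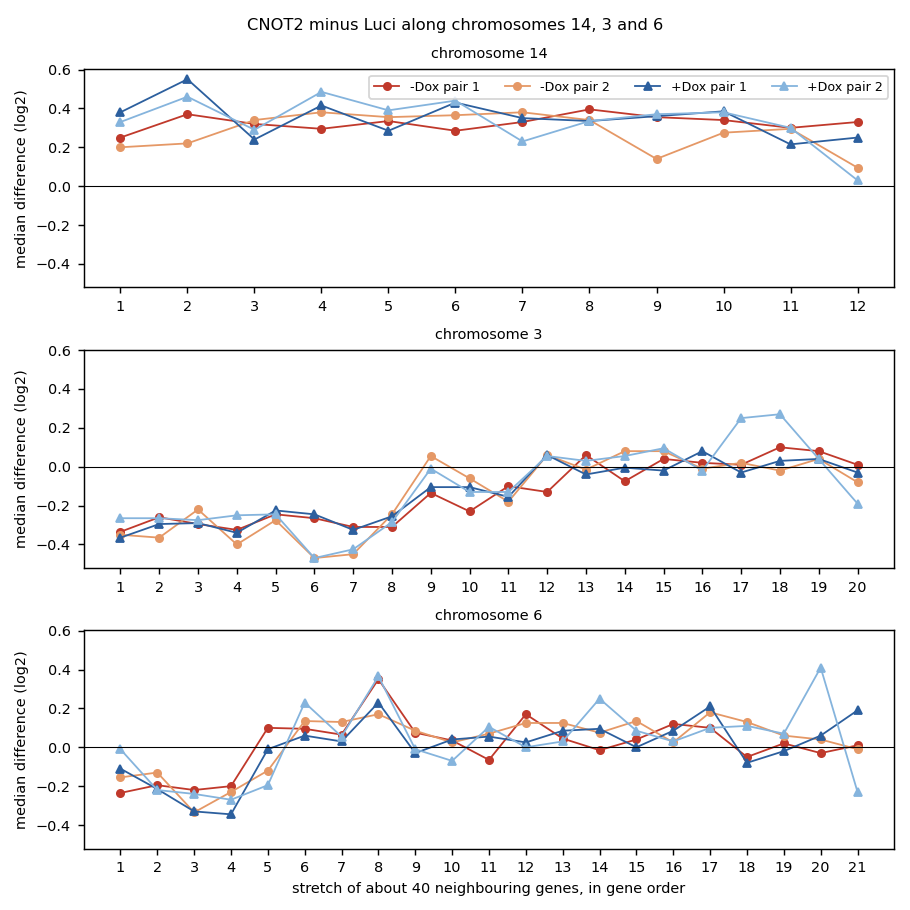
Median CNOT2 minus Luci difference (log2, vertical axis) in stretches of about 40 neighbouring genes along chromosomes 14, 3 and 6 (horizontal axis, in gene order), for the uninduced (circles) and induced (triangles) pairs. The lines of all 4 pairs run above 0 along nearly all of chromosome 14 and below 0 along the first stretches of chromosomes 3 and 6.

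Outside MHC class II and chromosomal position, most gene lists had medians near 0 between the uninduced lines. Of 34 lists 31 had a median within 0.3 of 0, and none of the 859 tested entries of all lists was called (0.0% of all genes tested). Beyond that limit lay MHC class II, blood-cell signalling and osteoblast genes. Osteoblast genes had a median of 0.318 (12 tested, 4 higher and 2 lower in both pairs), with pair medians of -0.04 and 0.26. Blood-cell signalling genes had a median of 0.43 (17 tested, 11 higher and 3 lower in both pairs) and PRAM1, an adaptor protein of myeloid cells, was over 2-fold higher in both pairs, with 4.02 and 4.56 against 2.33 and 3.44. Of 32 tested neuronal genes 16 were higher and 7 lower in both pairs (median 0.22), and NTRK2, a receptor tyrosine kinase for the neurotrophin BDNF, read 5.31 and 4.76 against 4.00 and 2.30 and then 6.27 and 5.46 against 2.95 and 2.24 with Dox. ACVRL1, a TGF-beta superfamily receptor of endothelium, read 5.02 and 5.41 against 3.42 and 4.27, and 6.34 and 7.84 against 3.62 and 5.71 with Dox. Its list had a median of -0.14. NOTCH1, the receptor of its pathway, read 5.96 and 4.29 against 4.70 and 3.26 on its brightest spot and differed by -0.45 and -0.74 with Dox, and SP110, an interferon-induced nuclear body protein, read 4.04 and 3.75 against 2.91 and 2.56.

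Genes of basal cell functions had medians close to 0. The 71 tested ribosomal protein genes had a median of -0.005 with an SD over genes of 0.131, and the 44 cell cycle genes one of -0.04, with 13 higher and 13 lower in both pairs. Cholesterol synthesis genes lay lower, with a median of -0.11 and 12 of 26 lower and 1 higher in both pairs. Among them MVK, mevalonate kinase, read 10.21 and 10.09 against 10.53 and 10.58. The p53 targets had a median of 0.01, with 10 higher and 11 lower of 29. FAS, a death receptor among them, read 5.64 and 5.58 against 6.52 and 6.6 on its brightest spot, but 8 of its 9 other spots of like level had a positive difference. RNF43, a ubiquitin ligase that limits Wnt receptors, was higher by 0.93 and 0.84 and by 1.09 and 0.66 with Dox, in a pathway with a median of 0.02 over 31 genes.

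**Figure D5:**
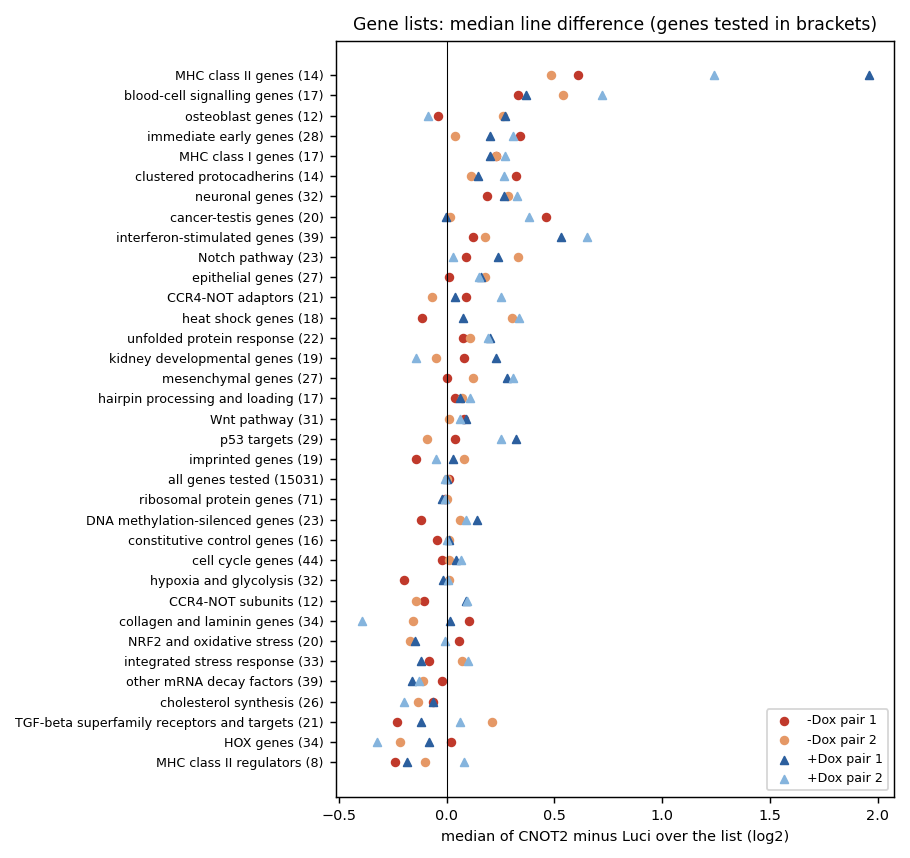
Median CNOT2 minus Luci difference (log2, horizontal axis) over each gene list (vertical axis, number of genes tested in brackets), for the uninduced (circles) and induced (triangles) pairs. MHC class II genes stand highest, at 0.61 and 0.485 without Dox and 1.96 and 1.24 with Dox, and most other lists lie near 0.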

How the data were processed

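RNA of HEK-293T clones was hybridised to one-colour Agilent arrays, one sample per array. The deposited table holds log2 intensities that the authors had background-corrected on negative control spots and quantile-normalized between arrays. The submitters' processing notes name limma, with no version, and the genome build of the array design is not given in the sources used here. Of 62976 spots, 37051 carried 1 gene symbol and 25925 none; each gene was read from its brightest spot over the 12 arrays. Symbols were updated through RefSeq (18762 genes by accession, 948 by symbol, 314 by synonym, 18 not matched). Genes with a mean under the 25th percentile (2.96) over 8 arrays were left out. Group means of the 4 groups were fitted with limma 3.58.1 (R 4.3.3) to CNOT2 and Luci cells with and without Dox (8 arrays, 4 residual degrees of freedom), without block or trend, calling an adjusted p under 0.05. The script was tested on simulated data. Same-numbered arrays deviated together in all 6 pairs of groups (correlations 0.359 to 0.606), so the replicate number pairs them. Intensities of arrays carry no counts, and the number of arrays limits precision. Named genes were CNOT1, CNOT2 and CNOT3, MHC class II genes and CCR4-NOT subunits, the member of each list with the largest difference either way, and up to 15 called genes in each direction over 2-fold in both pairs. Since none was called, these places were filled by genes not called, with the largest value of the smaller pair difference. Brighter genes beyond 2-fold and genes called over both Dox states were named after their values were seen. Chromosomes, repeated spots and stretches were examined after the values were seen. The alternatives are those of the closing section. The members and lists were chosen with earlier results of these data known. Arrays of the CNOT1 and CNOT3 lines with Dox were not used for comparison here.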

Additional observations from a re-analysis of the deposited data

Results flagged for a closer look

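Spots for which no gene symbol was at hand stood outside the comparisons above. Of 1808 such spots with a level of 5.75 or more, 3 were over 2-fold higher in CNOT2 -Dox than in Luci -Dox cells in both same-numbered pairs (0.166%), and 1 of these was so in both induced pairs as well. Another 3 were over 2-fold lower, and all 3 of these were so in both induced pairs. What they measure is not known from the tables used here.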

How the results depend on the processing

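No gene was called between the uninduced lines in any of the 20 settings, with 105 to 842 genes at an unadjusted p under 0.05. These settings were the replicate block (0 called, 842 genes), an intensity trend, both, other arrays, other filters, the mean of all spots, another normalization, the second Luci -Dox array counted as +Dox, and each array left out in turn. The pairing by replicate number came with the block and changed calls only together with the intensity trend: the induced difference then had 25 genes higher and 2 lower, and the difference over both Dox states 27 higher and 7 lower. Leaving out 1 array at a time under block and trend gave 2 to 39 higher and 0 to 11 lower genes for the latter (higher 34, 12, 12, 2, 7, 3, 39 and 15 and lower 11, 2, 1, 0, 1, 1, 10 and 1, without CNOT2 -Dox 1 and 2, Luci -Dox 1 and 2, CNOT2 +Dox 1 and 2 and Luci +Dox 1 and 2 in turn). Genes over 2-fold in both pairs fell to 12 higher and 5 lower when genes under the 50th percentile of level were left out, by construction. Leave-one-out values of this number could not be had, since it needs both pairs.

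The MHC class II median (0.605) was 0.321 against all 4 Luci arrays, 0.728 without genes under the 50th percentile and 0.508 with the mean of all spots, and 0.605 to 0.83 with an array left out. The chromosome 14 median (0.315) was 0.265 with the second Luci -Dox array counted as +Dox and 0.335 without dimmer genes, and 0.265 to 0.325 with an array left out. That for the chromosome 3 stretch (-0.302) was -0.265 with that array counted as +Dox, and -0.345 to -0.265 with an array left out. For the chromosome 6 stretch (-0.195) these were -0.263, and -0.278 to -0.172. The cause was not tested. CNOT2 kept its sign throughout.

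Of 46 single genes, 3 changed sign: CNOT3 was -0.0325 with the mean of all spots, -0.305 without the second CNOT2 -Dox array and -0.285 without the first Luci -Dox array (up to 0.385 with others left out), KIAA0408 was -0.305 and -0.275 without these arrays (up to 2.38), and PAX7 was -0.217 with the mean of all spots. Dim genes limit what 2 arrays per line can show, since their spread between pairs is several times that of bright genes.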
